A study of Mus musculus with 6 samples.

Results

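The genes described here encode structural glycoproteins, laminins and proteoglycans of the extracellular matrix, the protein scaffold around the cells of brown adipose tissue. They are 37 genes of the 45777 in the deposited count table, chosen by name for their roles, with earlier results of these data known. Of these, 14 belong to elastic fibres and the enzymes that cross-link them, 10 to basement membranes, 5 are proteoglycans and 8 are adhesive glycoproteins. RNA came from whole brown fat of male wild-type C57Bl6/J mice given ginsenoside Rb2, a saponin of ginseng, or phosphate-buffered saline (PBS) by intraperitoneal injection over 2 weeks. Each group held 3 mice with 1 library each, and both groups share strain, sex and genotype. The sources used here state neither the dose of Rb2 nor the age of the mice.

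Basement membranes are thin sheets that surround each adipocyte, each capillary and the mural cells of vessels. They are built from laminin heterotrimers (one alpha, one beta and one gamma chain) and type IV collagen, joined by nidogens and perlecan. Elastic fibres have an elastin core on a sheath of fibrillin microfibrils, assembled with the help of fibulins and cross-linked by lysyl oxidases. Small leucine-rich proteoglycans such as decorin coat collagen fibrils and set their spacing, and in fat most of these proteins come from stromal and vascular cells, with laminin and other basement membrane chains also made by the adipocytes.

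Total counts ran from 83642183 to 92666780 per library. Levels are CPM, counts scaled to a common library total with TMM factors, and libraries are named by group and the number in the column header (Rb2 1, 3 and 4; PBS 1, 2 and 4). Muscle RNA and base composition set libraries apart. Skeletal muscle markers took 0.000219% to 0.0338% of the counts in the Rb2 libraries, against 0.184% in PBS 1, 0.647% in PBS 2 and 0.000854% in PBS 4. Over 15779 genes, which share these 6 libraries and are not replicates, log2 fold changes were lower the richer the transcript was in G and C (Spearman rho -0.333). All 12 markers of mature brown adipocytes were detected, with summed levels of 13570 to 17590 CPM in Rb2 libraries and 16100 to 17310 CPM in PBS libraries.

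The matrix genes were lower as a group in Rb2-treated brown fat. Of the 36 members that passed the filter on low counts, 11 fell (30.6%) and 0 rose at an adjusted p under 0.05 in edgeR's quasi-likelihood test, where 5.11% of all 16707 tested genes fell, 5.33% rose and 10.4% changed in either direction. Over all genes the balance of calls moved with the scaling: 853 lower and 890 higher with TMM factors, 779 and 492 with library size alone, 501 and 804 with the GC and length offset. Those that fell were Fbn1, Fbln2, Fbln5, Efemp2, Emilin1 and Loxl1 of the elastic fibre, Lama5, Nid2 and Hspg2 of the basement membrane, the proteoglycan Bgn and the adhesive glycoprotein Fn1. At an unadjusted p under 0.05, 25 members were lower, as were 14.6% of all tested genes, and 1, Lamb1, was higher. DESeq2 called 20 members lower, with 10.8% of all genes it tested, limma-voom called 8, with 3.56% of all genes, and both called 0 members higher. Beyond the 11, the DESeq2 calls included Mfap5, Loxl2, Lamb2, Nid1, Lum, Thbs1 and Tnc, and limma-voom called no member outside the 11. The median log2 fold change (Rb2 over PBS) was -0.52 over the tested members and -0.01 over all tested genes. Every Rb2 library lay below every PBS library in 25 members, as in 17.6% of all tested genes. Every Rb2 library lay above every PBS library in Lamb1 alone. In either direction the groups were apart in 26 members, and in 35.8% of all tested genes. The summed level of the 37 genes was 2015, 2043 and 2333 CPM in the Rb2 libraries, against 2969, 2775 and 2749 CPM in the PBS libraries. These sums weigh abundant genes most. Sparc, which did not pass the test, gave 641, 708 and 779 CPM of them with Rb2 and 1049, 877 and 845 CPM with PBS. In bulk tissue, fewer cells of a type and less RNA per cell cannot be told apart. Endothelial markers, described below, were lower in the same libraries (1069 to 1563 CPM in sum with Rb2, 1964 to 2201 CPM with PBS). Smooth muscle and pericyte sums (785 to 870 CPM with Rb2, 1012 to 1039 CPM with PBS) were also lower. Macrophage sums were lower too (78.8 to 110.5 CPM with Rb2, 120.2 to 153 CPM with PBS), while fibroblast and mature adipocyte sums overlapped.

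The number of calls depended on single libraries, among all genes as among the members. Members lower were 3 without PBS 1 (Efemp2, Fbln2, Hspg2), 1 without PBS 2 (Fbn1) and 10 without PBS 4. They were 2 without Rb2 1 (Thbs1 and Tnc, neither among the 11), 1 without Rb2 3 (Fbn1) and 14 without Rb2 4. In the same order, 213, 181, 890, 271, 265 and 1069 of all genes were lower, of 17087 to 17272 tested. With all 6 libraries 853 of 16707 were lower. With both muscle-rich libraries, PBS 1 and PBS 2, left out, edgeR called 0 of the 36 members and 0 of all genes; 31 members were fitted below 0, beside 48.9% of all tested genes, and 10 were lower at an unadjusted p under 0.05, beside 6.02% of all tested genes. That fit has 1 PBS library, assumed to vary like the Rb2 libraries. With the skeletal muscle markers as a covariate 7 members fell, against 2.91% of all tested genes, and with GC content and transcript length fitted as an offset 6 fell, against 3.0% of all tested genes.

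**Figure D1:**
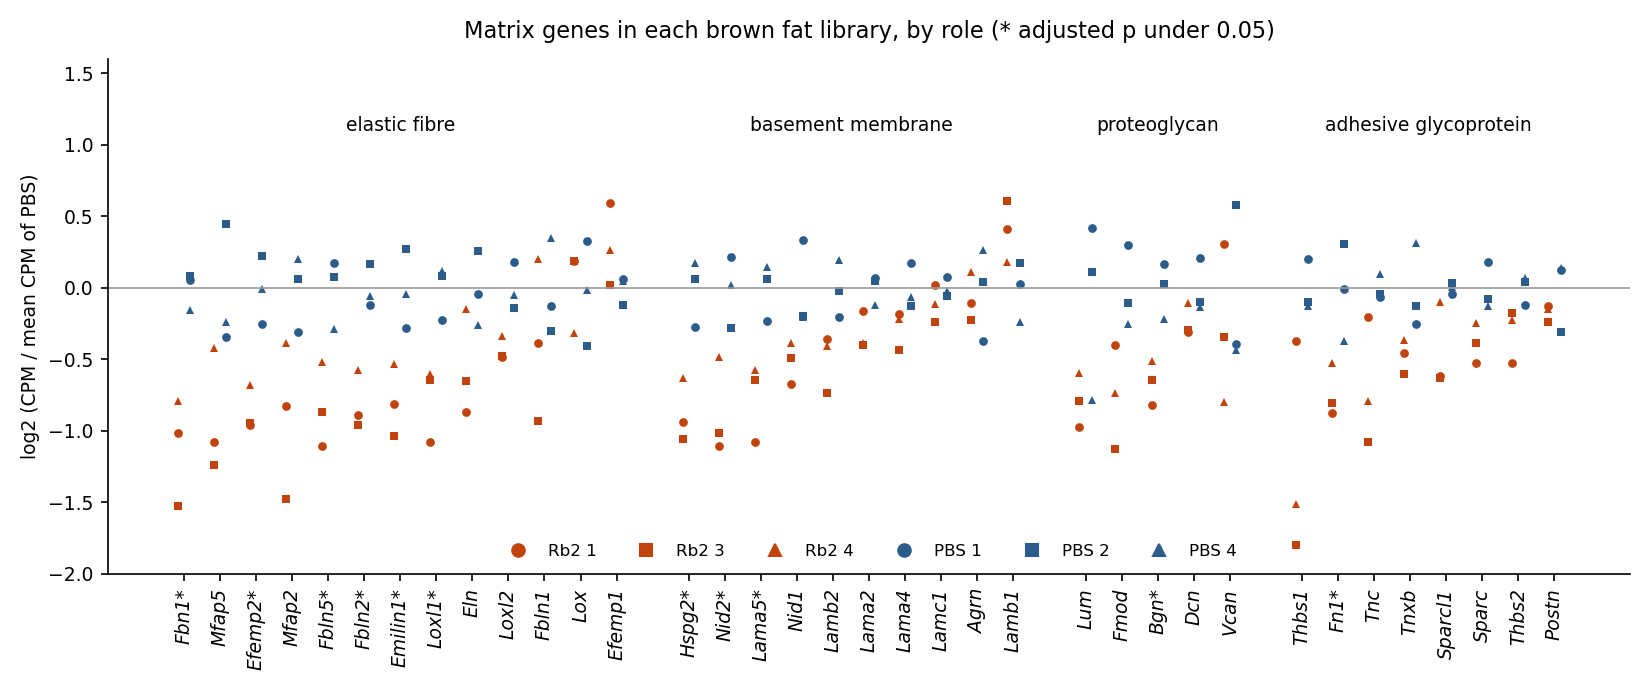
Level of each of the 36 tested matrix genes in each library, as the log2 ratio of its CPM to the mean of the PBS libraries (vertical axis, log2 units), with genes grouped by role along the horizontal axis. Each point is 1 library of 1 mouse, and an asterisk marks the 11 genes that passed the test; Rb2 points lie below all PBS points for 25 genes and above them for Lamb1.

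The upstream sequences of 4 members are shown because these genes lead their role groups by p or by abundance: Fbn1, Hspg2 and Bgn, which fell, and Sparc, which did not pass the test. They are the RefSeq promoter windows of GRCm38.p6, 5′ to 3′ on the gene's strand, restricted to bases outside the annotated gene. Capitals mark GGGCGG on either strand, the core of the GC box bound by Sp1-family factors; matches may overlap.
Fbn1, chr2:125506486-125506688, minus strand: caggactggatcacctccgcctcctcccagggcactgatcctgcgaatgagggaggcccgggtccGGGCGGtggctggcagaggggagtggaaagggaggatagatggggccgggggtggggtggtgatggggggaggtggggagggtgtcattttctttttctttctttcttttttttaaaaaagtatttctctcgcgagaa
Hspg2, chr4:137468553-137468750, plus strand: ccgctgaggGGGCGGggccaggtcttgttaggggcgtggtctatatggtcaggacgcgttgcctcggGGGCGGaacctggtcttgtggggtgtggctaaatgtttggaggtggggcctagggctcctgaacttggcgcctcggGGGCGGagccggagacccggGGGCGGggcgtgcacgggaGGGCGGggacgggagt
Bgn, chrX:73483351-73483600, plus strand: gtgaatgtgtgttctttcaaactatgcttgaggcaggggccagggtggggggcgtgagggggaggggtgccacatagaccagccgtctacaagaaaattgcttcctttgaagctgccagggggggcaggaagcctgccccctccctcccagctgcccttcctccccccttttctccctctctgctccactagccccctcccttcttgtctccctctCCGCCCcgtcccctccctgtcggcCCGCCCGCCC
Sparc, chr11:55420081-55420330, minus strand: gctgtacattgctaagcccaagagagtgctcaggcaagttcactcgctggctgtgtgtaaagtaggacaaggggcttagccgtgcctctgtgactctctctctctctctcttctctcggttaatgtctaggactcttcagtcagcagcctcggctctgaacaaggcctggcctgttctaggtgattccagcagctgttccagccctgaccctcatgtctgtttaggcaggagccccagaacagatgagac

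The GC box core occurred 5 times in the Hspg2 stretch, 3 times in that of Bgn, once in that of Fbn1 and not in that of Sparc. RefSeq windows of 250 bases before the start were held for 23 of the 37 members (31 windows) and for 8 of the 11 that fell (11 windows). GGGCGG or its complement was present in 19 of the 31 member windows (61.3%) and in 9 of the 11 windows of members that fell (81.8%), against 32.7% of all 32851 windows. Windows of the same gene are not independent, and Efemp2 gave several, all with the core. The member windows were also richer in G and C, with a median of 59.2% against 52.4% for all windows. Windows of members that fell ran from 49.6% (Fbln5) to 78.8% (Efemp2), and all except that Fbln5 window were above 52.4%. Whether the core was more frequent than in windows of equal G and C content was not tested. TATAAA, the TATA box, was found in 4 member windows (12.9%), none of them of a gene that fell, and in 12.4% of all windows. CCAAT, the core of the NF-Y site, was in 6 member windows (19.4%) and in 33.8% of all windows. GGAATG, the core of the TEAD site, and TGANTCA, the AP-1 site, were each in 2 member windows (6.45%), and in 12.6% and 6.75% of all windows. All motifs were searched on both strands.

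Elastic fibre genes held 6 of the 11 calls, with 6 of 13 tested members lower, beside 5.11% of all tested genes. Their median log2 fold change was -0.78. Fbn1 encodes fibrillin-1, the main protein of microfibrils (gene ID 14118; chromosome 2, 125300594 to 125506485 in GRCm38.p6, as for all positions). It was at 10.5, 7.39 and 12.3 CPM in Rb2 1, 3 and 4, against 22.2, 22.6 and 19.1 CPM in PBS 1, 2 and 4. The groups were clearly apart, with Rb2 3 the lowest library. Its log2 fold change of -1.08 ± 0.19 (SE, adjusted p = 0.0118) was the largest among the members that passed the test, and its call was kept in 4 of the 6 tests with 1 library left out, which no other member exceeded.

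The fibulins are calcium-binding glycoproteins that link elastin to microfibrils and to basement membranes. Fbln2 (fibulin-2; gene ID 14115; chromosome 6, 91212460 to 91272540) was at 23.8, 22.7 and 29.6 CPM in Rb2 libraries, against 40.4, 49.3 and 42.3 CPM in PBS libraries. The groups did not overlap, and the log2 fold change was -0.80 ± 0.14 (SE, adjusted p = 0.0131). Fbln5 (fibulin-5, which brings lysyl oxidase-like enzymes to elastin) was at 15.4, 18.1 and 23.0 CPM in Rb2 libraries, against 37.2, 34.7 and 27.0 CPM in PBS libraries. The gap between Rb2 4 and PBS 4 was the narrowest, and the fall was -0.81 ± 0.18 on the log2 scale (SE, adjusted p = 0.0249). Efemp2 encodes fibulin-4, which is needed for elastic fibre assembly in mice. It was at 4.47, 4.53 and 5.43 CPM in Rb2 libraries, against 7.31, 10.2 and 8.66 CPM in PBS libraries, with no overlap (log2 fold change -0.86 ± 0.17 SE, adjusted p = 0.0190). Its relative Efemp1, fibulin-3, went the other way in the fit without passing the test: 19.2, 12.9 and 15.3 CPM in Rb2 libraries against 13.3, 11.7 and 13.1 CPM in PBS libraries (log2 fold change 0.31 ± 0.16 SE, adjusted p = 0.222). These groups overlapped, with Rb2 3 below PBS 1 and PBS 4. Fbln1, fibulin-1, was low and overlapping in both groups, at 1.37 ± 0.530 CPM with Rb2 and 1.68 ± 0.410 CPM with PBS (SD, n = 3 each).

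Emilin1, a microfibril-associated glycoprotein that lies at the border of elastin and microfibrils, was at 6.86, 5.87 and 8.31 CPM in Rb2 libraries, against 9.93, 14.6 and 11.7 CPM in PBS libraries. The groups did not overlap (log2 fold change -0.78 ± 0.19 SE, adjusted p = 0.0311). With the GC and length offset it was at -0.41 (adjusted p = 0.0965), and with the muscle covariate its adjusted p was 0.0642. The microfibril-associated glycoproteins Mfap2 and Mfap5 were lower in every Rb2 library than in any PBS library but did not pass (log2 fold changes -0.83 ± 0.33 and -0.86 ± 0.29 SE, adjusted p = 0.125 and 0.0821). Elastin itself, Eln, was at 11.6, 13.5 and 19.2 CPM in Rb2 libraries, against 20.6, 25.4 and 17.7 CPM in PBS libraries. Rb2 4 overlapped PBS 4, and the difference did not pass (log2 fold change -0.52 ± 0.21 SE, adjusted p = 0.129); it did without Rb2 4 (adjusted p = 0.0337), and in the other alternatives the adjusted p ran from 0.0724 to 0.738. Fbn2, fibrillin-2, a microfibril protein mostly of developing tissue, had 24 counts in all, 21 of them in PBS 2 and 3 in Rb2 3. It was not tested.

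The lysyl oxidases cross-link elastin and collagen. Loxl1, which acts mainly on elastin, was at 8.87, 12 and 12.4 CPM in Rb2 libraries, against 16.1, 19.9 and 20.3 CPM in PBS libraries. No library of one group reached the other (log2 fold change -0.76 ± 0.16 SE, adjusted p = 0.0237), while with the GC and length offset its change was -0.39 (adjusted p = 0.0970). Lox, the founding member, overlapped fully, with 20.05, 20.01 and 14.1 CPM in Rb2 libraries and 22.1, 13.3 and 17.4 CPM in PBS libraries (log2 fold change 0.04 ± 0.21 SE, adjusted p = 0.921); the sign of this value turned with library size as the scaling (-0.04) and with the offset (-0.08). Loxl2, which also acts on type IV collagen, had groups that did not overlap, at 8.06 ± 0.472 CPM with Rb2 and 10.9 ± 1.27 CPM with PBS (SD, n = 3 each; log2 fold change -0.43 ± 0.14 SE, adjusted p = 0.0787). Within libraries the ratio of Loxl1 to Lox, per kb of transcript, was 0.636, 0.862 and 1.26 in Rb2 1, 3 and 4, against 1.05, 2.16 and 1.68 in PBS 1, 2 and 4, so Rb2 4 overlapped PBS 1.

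**Figure D2:**
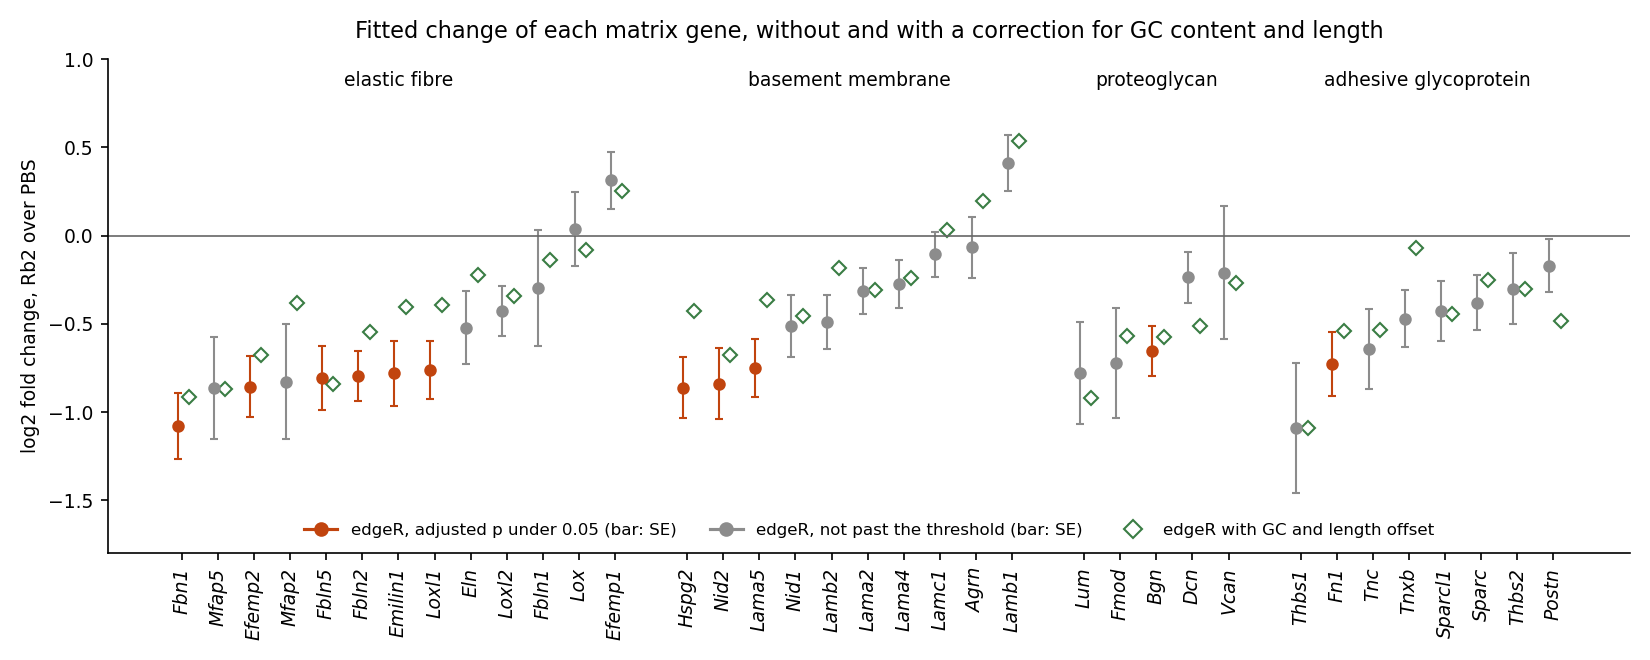
Fitted log2 fold change of Rb2 over PBS for the 36 tested matrix genes (vertical axis), by role. Filled circles are edgeR estimates with bars of 1 standard error, red where the adjusted p is under 0.05; open diamonds are the estimates with the GC content and length offset, which lie nearer to 0 for Hspg2 (-0.43), Lama5 (-0.36) and Tnxb (-0.07) and further from 0 for Dcn (-0.51) and Postn (-0.48).

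In the basement membrane 3 of 10 members fell, beside 5.11% of all tested genes. Lama5 was the one laminin chain among the members that passed the test. Perlecan, encoded by Hspg2, is the large heparan sulfate proteoglycan that ties laminin to collagen IV and holds growth factors (gene ID 15530; chromosome 4, 137468751 to 137570630). It was at 169, 156 and 209 CPM in Rb2 libraries, against 268, 337 and 365 CPM in PBS libraries. All Rb2 libraries were below all PBS libraries, and the log2 fold change was -0.86 ± 0.17 (SE, adjusted p = 0.0188). Nid2, nidogen-2, was at 5.77, 6.14 and 8.88 CPM in Rb2 libraries, against 14.4, 10.2 and 12.6 CPM in PBS libraries. The groups did not overlap (log2 fold change -0.84 ± 0.20 SE, adjusted p = 0.0309). Nid2 overlaps Rtraf on the opposite strand by 386 bases, and no source used here says whether the counting used strand. The more abundant Nid1 was at 80.6, 91.8 and 98.4 CPM in Rb2 libraries, against 163, 112 and 112 CPM in PBS libraries, apart but short of the threshold (log2 fold change -0.51 ± 0.17 SE, adjusted p = 0.0870).

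Lama5 encodes the alpha-5 chain of laminins in mature vessel and epithelial basement membranes (gene ID 16776; chromosome 2, 180176373 to 180225904). It was at 21.2, 28.6 and 29.99 CPM in Rb2 libraries, against 38.1, 46.6 and 49.5 CPM in PBS libraries, with no overlap (log2 fold change -0.75 ± 0.16 SE, adjusted p = 0.0242). Lama4, the alpha chain typical of adipocyte and endothelial basement membranes, was at 69.2 ± 6.39 CPM with Rb2 and 83.8 ± 9.35 CPM with PBS (SD, n = 3 each). Its groups were apart, but the log2 fold change of -0.28 ± 0.14 (SE) did not pass (adjusted p = 0.205). Lama2, the alpha chain of muscle and nerve basement membranes, was at 12.1 ± 1.17 CPM with Rb2 and 14.98 ± 1.05 CPM with PBS (log2 fold change -0.31 ± 0.13 SE, adjusted p = 0.145).

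The beta chains had fitted changes of opposite sign, neither of which passed the test. Lamb1 was at 124, 142 and 106 CPM in Rb2 libraries, against 94.9, 105 and 79.0 CPM in PBS libraries, the one member with every Rb2 library above every PBS library, although Rb2 4 and PBS 2 nearly met (log2 fold change 0.41 ± 0.16 SE, adjusted p = 0.123; with the offset 0.54, adjusted p = 0.0619). Lamb2, which replaces beta-1 in many mature basement membranes, was at 60.1, 46.3 and 58.2 CPM in Rb2 libraries, against 66.7, 75.9 and 88.2 CPM in PBS libraries. It was lower throughout (log2 fold change -0.49 ± 0.15 SE, adjusted p = 0.0692) and passed with a count minimum of 50 (adjusted p = 0.0469) and in the DESeq2 Wald test, while with the offset it was at -0.19 (adjusted p = 0.411). Within libraries, the ratio of Lamb1 to Lamb2 per kb of transcript was 2.0, 2.99 and 1.77 in Rb2 1, 3 and 4, against 1.39, 1.35 and 0.872 in PBS 1, 2 and 4. This ratio was formed after the values had been seen and is given without a test. Lamc1, the common gamma chain, was at 90.7 ± 8.02 CPM with Rb2 and 97.7 ± 4.69 CPM with PBS, overlapping (SD, n = 3 each; log2 fold change -0.11 ± 0.13 SE, adjusted p = 0.602). Agrin, Agrn, a heparan sulfate proteoglycan best known from the neuromuscular junction, also overlapped (29.6 ± 3.57 CPM with Rb2, 31.0 ± 6.69 CPM with PBS; log2 fold change -0.07 ± 0.17 SE, adjusted p = 0.823), and with the offset its fitted sign was positive (0.19).

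With the GC and length offset none of the 3 basement membrane calls was kept: Hspg2 was at -0.43 (adjusted p = 0.148), Lama5 at -0.36 (adjusted p = 0.185) and Nid2 at -0.68 (adjusted p = 0.0834). At an unadjusted p under 0.05 with the offset, 4 basement membrane members were lower and 1 was higher. Of all 16707 tested genes, 4707 changed in either direction at that threshold. Hspg2 and Lama5 kept their calls with the muscle covariate, and Nid2 did not (adjusted p = 0.0570).

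**Figure D3:**
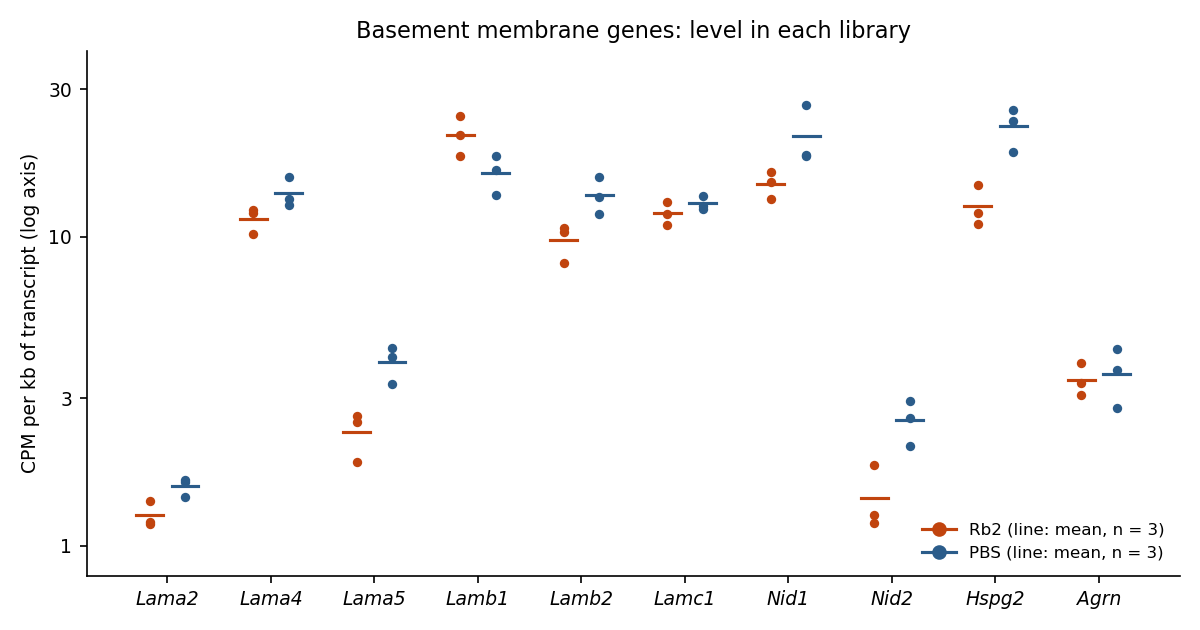
Level of the 10 basement membrane genes in each library, in CPM per kb of the longest transcript on a log axis, with Rb2 points left of PBS points and a line at each group's mean. Lamb1 is the gene whose Rb2 points all lie above its PBS points, while the Hspg2, Lama5 and Nid2 points separate in the other direction.

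Among proteoglycans 1 of 5 members fell, a single gene, beside 5.11% of all tested genes. The heparan sulfate proteoglycans Hspg2, which fell, and Agrn, which did not pass, are counted with the basement membrane. Bgn encodes biglycan, a small leucine-rich proteoglycan that binds collagen (gene ID 12111; chromosome X, 73483601 to 73495936). It was at 46.7, 52.7 and 57.8 CPM in Rb2 libraries, against 92.5, 84.0 and 70.8 CPM in PBS libraries. The groups did not overlap, and the fall was -0.65 ± 0.14 on the log2 scale (SE, adjusted p = 0.0244); the call was kept with the offset (adjusted p = 0.0344) and not with the muscle covariate (adjusted p = 0.0560).

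Dcn, decorin, the proteoglycan with the highest level per kb, was at 123, 125 and 142 CPM in Rb2 libraries, against 177, 143 and 139.8 CPM in PBS libraries. Rb2 4 lay between PBS 2 and PBS 4, so the groups overlapped (log2 fold change -0.24 ± 0.14 SE, adjusted p = 0.299). Its transcript is among the poorest of the members in G and C (37.4%), and with the offset it was lower by the test (-0.51, adjusted p = 0.0418). Lum, lumican, is the neighbour of Dcn on chromosome 10 (97565501 to 97572703). It was at 14.9, 16.9 and 19.4 CPM in Rb2 libraries, against 39.2, 31.7 and 16.98 CPM in PBS libraries, so that PBS 4 fell among the Rb2 libraries (log2 fold change -0.78 ± 0.29 SE, adjusted p = 0.127). Without PBS 4 Lum was lower by the test (-1.07, adjusted p = 0.0149), and without PBS 1 and PBS 2 its log2 fold change was 0.01. Within libraries the ratio of Dcn to Bgn per kb was 1.50, 1.34 and 1.40 in Rb2 1, 3 and 4, against 1.09, 0.966 and 1.12 in PBS 1, 2 and 4, without overlap and given as a description. The ratio is not corrected for GC content, which was 37.4% for Dcn and 51.2% for Bgn. With the offset the log2 fold changes lay close together, at -0.51 for Dcn and -0.58 for Bgn, against -0.24 and -0.65 without it. Fmod, fibromodulin, and the large hyaluronan-binding proteoglycan Vcan, versican, were low. Fmod was at 0.642 ± 0.159 CPM with Rb2 and 1.06 ± 0.219 CPM with PBS (adjusted p = 0.156), and Vcan at 1.40 ± 0.544 CPM with Rb2 and 1.62 ± 0.696 CPM with PBS (adjusted p = 0.740; SD, n = 3 each).

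Of the 8 adhesive glycoproteins 1 fell, beside 5.11% of all tested genes. All 8 were fitted below 0, as were 51.0% of all tested genes. The groups did not overlap in 7, as in 35.8% of all tested genes. Fn1 encodes fibronectin, which links cells to the matrix through integrins (gene ID 14268; chromosome 1, 71585473 to 71653280). It was at 16.2, 17 and 20.6 CPM in Rb2 libraries, against 29.5, 36.7 and 22.9 CPM in PBS libraries. PBS 4 was the closest to the Rb2 libraries (log2 fold change -0.73 ± 0.18 SE, adjusted p = 0.0356). The call was not kept with the offset (-0.54, adjusted p = 0.0615), with the muscle covariate (-0.54, adjusted p = 0.0740) or in limma-voom.

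Sparc, osteonectin, a collagen-binding glycoprotein that restrains fat expansion in mice, was the most abundant member. It was at 641, 708 and 779 CPM in Rb2 libraries, against 1049, 877 and 845 CPM in PBS libraries. The groups were apart, yet the log2 fold change of -0.38 ± 0.16 (SE) did not pass (adjusted p = 0.137). Its relative Sparcl1, hevin, strong in vessels, was at 197, 195 and 281 CPM in Rb2 libraries, against 294, 309 and 304 CPM in PBS libraries. Rb2 4 was close to PBS here (log2 fold change -0.43 ± 0.17 SE, adjusted p = 0.128), and without it the difference passed (-0.63, adjusted p = 0.0240), while in the other alternatives the adjusted p ran from 0.0525 to 0.571. Thbs1, thrombospondin-1, an inhibitor of vessel growth and activator of latent TGF-beta, was at 8.04, 2.99 and 3.65 CPM in Rb2 libraries, against 12.01, 9.72 and 9.55 CPM in PBS libraries. Its log2 fold change was as large as that of Fbn1, but Rb2 1 stood well above the other Rb2 libraries (-1.09 ± 0.37 SE, adjusted p = 0.104). Without Rb2 1 it was -1.65 (adjusted p = 0.0154), and it also passed in the DESeq2 Wald test; in the other alternatives the adjusted p ran from 0.0588 to 0.544. Tnc, tenascin-C, a glycoprotein of remodelling tissue, was likewise highest in Rb2 1 among the Rb2 libraries, at 5.28, 2.88 and 3.52 CPM in Rb2 1, 3 and 4, against 5.83, 5.92 and 6.50 CPM in PBS 1, 2 and 4. It did not pass with all libraries (log2 fold change -0.64 ± 0.23 SE, adjusted p = 0.0964) and did without Rb2 1 (-0.92, adjusted p = 0.0462) and in the DESeq2 Wald test, with 0.0671 to 0.475 in the other alternatives.

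The other 3 adhesive members did not pass. Tnxb, tenascin-X, which spaces collagen fibrils, was at 38.3 ± 3.17 CPM with Rb2 and 53.2 ± 11.5 CPM with PBS (log2 fold change -0.47 ± 0.16 SE, adjusted p = 0.0875). Its transcript is rich in G and C (60.7%), and with the offset the difference was -0.07. Thbs2 (2.33 ± 0.295 CPM with Rb2, 2.87 ± 0.203 CPM with PBS) had groups apart, and Postn, periostin (107 ± 4.36 CPM with Rb2, 120.3 ± 20.2 CPM with PBS), overlapped (SD, n = 3 each; adjusted p = 0.345 and 0.477).

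Levels per kb of transcript spanned a wide range. Averaged over all 6 libraries, Sparc stood at 355 CPM per kb, followed by Sparcl1 at 95.4, Dcn at 30.2, Bgn at 25.3 and Postn at 21.8. The order of some genes differed between the groups, in levels not corrected for GC content. Transcript GC content was 52.5% for Lamb1, 50.4% for Nid1, 60.9% for Hspg2, 44.9% for Efemp1 and 57.0% for Fbln2. Of the basement membrane genes, Lamb1 stood at 21.4, Nid1 at 14.8 and Hspg2 at 12.5 CPM per kb with Rb2, against 16.1, 21.1 and 22.8 CPM per kb with PBS. Of the elastic fibre genes, Efemp1 stood at 7.74 and Fbln2 at 5.30 CPM per kb with Rb2, against 6.24 and 9.20 CPM per kb with PBS, and Fbn1 was at 1.31 over all libraries. The members' median coefficient of variation within a group was 15.2% for Rb2 and 14.8% for PBS. Of the Rb2 libraries, Rb2 4 was the highest in 23 of the 36 members and Rb2 3 the lowest in 19; no PBS library was the highest in more than 15.

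GC content moved with the comparison across all genes and touches these members, 8 of which lie in the decile of tested genes richest in G and C. In that decile the median log2 fold change of all genes was -0.33, with 198 genes lower and 21 higher, and in the poorest decile it was 0.26, with 7 lower and 199 higher. The members' median GC content was 52.5%, against 49.8% for all tested genes with a value. Of the 36 members, 32 lay below the median of their own GC decile, and the exceptions were Lamb1, Efemp1, Agrn and Lamc1. With the offset the median log2 fold change of the members was -0.40, and Bgn, Dcn, Efemp2, Fbln2, Fbln5 and Fbn1 fell. The source of the GC trend was not tested.

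**Figure D4:**
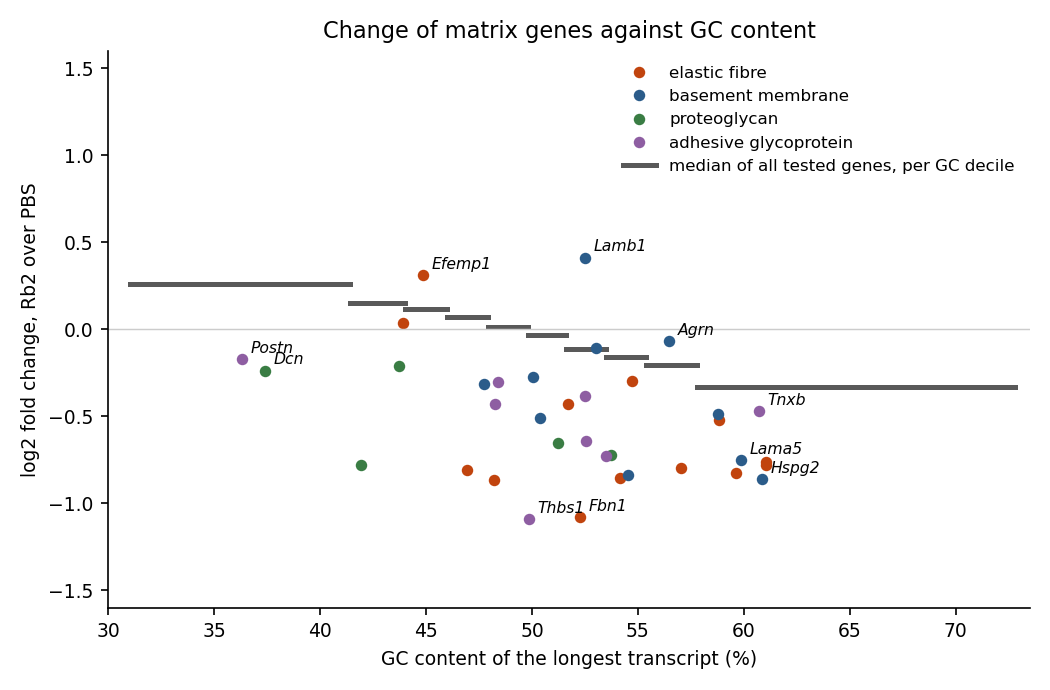
Log2 fold change of Rb2 over PBS (vertical axis) against the GC content of the longest transcript in percent (horizontal axis) for the 36 tested matrix genes, coloured by role. Grey bars are the medians of all tested genes in deciles of GC content, which run from 0.26 in the poorest decile to -0.33 in the richest; 32 of the 36 matrix genes lie below the bar of their decile.

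Collagens and further matrix genes came from lists chosen for their roles, with earlier results of these data known. Beside them, 5.11% of all tested genes were lower and 5.33% higher. With the GC and length offset 3.0% of all tested genes were lower, and with the muscle covariate 2.91%. The DESeq2 Wald test called 10.8% of all genes it tested lower. Of the fibrillar collagens 3 of 10 tested fell and 0 rose: Col5a3 (35.4 ± 1.48 CPM with Rb2, 62.7 ± 10.2 CPM with PBS; log2 fold change -0.82, adjusted p = 0.0114), Col5a1 (-0.62) and Col5a2 (-0.64), the chains of type V collagen that starts fibrils. Of the basement membrane collagens 4 of 8 fell, with Col15a1 (-0.72), Col4a2 (-0.58) and Col4a1 (-0.59; 427 ± 34.6 CPM with Rb2, 644 ± 17.4 CPM with PBS) among them. In collagen VI, a beaded filament of the pericellular matrix, 2 of 5 fell, Col6a1 (-0.74) and Col6a2 (-0.68), while Col6a3 did not pass (-0.45, adjusted p = 0.0710). Other laminin chains and netrins had 2 of 7 lower, Ntn1 (-0.85) and Lamc3 (-0.50), and Ntn4 did not pass (-0.73, adjusted p = 0.138). The other small leucine-rich proteoglycans had 0 of 7 called in edgeR, DESeq2 or limma-voom and 0 at an unadjusted p under 0.05 in edgeR, and their summed level ran from 249 to 414 CPM in Rb2 libraries and from 144 to 263 CPM in PBS libraries. Prelp, the most abundant of them, was at 252 ± 92.4 CPM with Rb2 and 141.5 ± 61.5 CPM with PBS (adjusted p = 0.216), while Podn (-0.60) and Aspn (0.27) did not pass either. With the GC and length offset edgeR called 0 fibrillar and 0 basement membrane collagens, while Col6a1 and Col6a2 stayed lower. At an unadjusted p under 0.05, 6 fibrillar collagens were lower and 1 was higher, and 1 basement membrane collagen was lower. Of the other laminins and netrins 0 were called (2 lower and 2 higher at an unadjusted p under 0.05). At that threshold 4707 of all 16707 tested genes changed in either direction. With the muscle covariate Col5a3, Col6a1 and Ntn1 were lower, and of the basement membrane collagens 0 were called (5 lower at an unadjusted p under 0.05). The DESeq2 Wald test called 6 fibrillar collagens lower and 1, Col27a1, higher.

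Markers of the stromal and vascular cells that make matrix were measured in the same libraries, where 5.11% of all tested genes fell and 5.33% rose. Of 15 endothelial markers 8 were lower and 0 higher, with Cldn5 (-2.05), Eng (-1.18) and Ptprb (-0.96) leading, and the list summed to 1069 to 1563 CPM in Rb2 libraries and 1964 to 2201 CPM in PBS libraries. With the muscle covariate, and with the offset, 8 endothelial markers were likewise lower. Smooth muscle and pericyte markers had 4 of 13 lower, with Smtn (-1.0), Kcnj8 (-1.03) and Mcam (-0.99), and summed to 785 to 870 CPM in Rb2 libraries and 1012 to 1039 CPM in PBS libraries. Fibroblast and preadipocyte markers had 2 of 12 lower, Clec3b (-1.17) and Thy1 (-0.93), and 1 higher, Ebf2 (0.84). The 4 smooth muscle and pericyte calls, Clec3b and Thy1 were also kept with the muscle covariate and with the offset. Ebf2 was kept with the offset and not with the muscle covariate. In these settings 2.91% and 3.0% of all tested genes were lower. The fibroblast and preadipocyte sums overlapped (563 to 658 CPM in Rb2 libraries, 561 to 793 CPM in PBS libraries). C3 was the largest part of these sums, at 405.5 ± 73.9 CPM with Rb2 and 442.7 ± 102.2 CPM with PBS (SD, n = 3 each). Gene by gene, 10 of the 12 were fitted below 0, as were 51.0% of all tested genes. The median log2 fold change of the list was -0.74, against -0.80 for the endothelial list. Of the mature brown adipocyte markers 1 of 12 was lower, Elovl3 (-1.74), and neither Cox8b (-0.65, adjusted p = 0.0751) nor Pparg (0.37, adjusted p = 0.150) passed. The part of these cell types in the change of the matrix genes was not tested. No skeletal muscle marker passed (0 of 12, with adjusted p between 0.322 and 0.357 for Mb, Myh2 and Mylpf, and 0 at an unadjusted p under 0.05 in edgeR), given their spread within the PBS group.

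**Figure D5:**
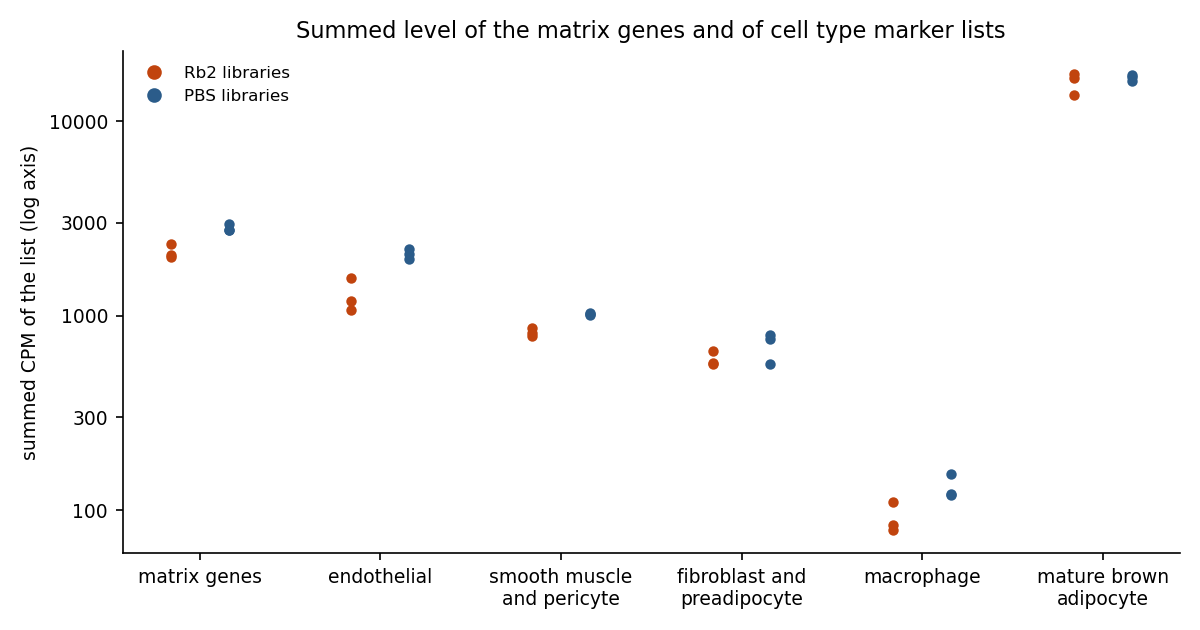
Summed CPM of the 37 matrix genes and of 5 cell type marker lists in each library (log axis), with Rb2 libraries left of PBS libraries. The matrix, endothelial, smooth muscle and pericyte, and macrophage sums are lower in every Rb2 library than in any PBS library. The fibroblast and mature adipocyte sums overlap, and C3 is the largest part of the fibroblast sum.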

How the data were processed

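Messenger RNA was measured in brown fat of 3 Rb2-treated and 3 PBS-treated mice. The authors deposited 1 table of raw read counts per gene; per the labels' protocols the libraries were poly(A)-selected and strand-marking. Trimmomatic, HISAT2, Bowtie2, StringTie and mm10 are named in the submitters' processing notes; the sources used here give neither the counting program nor its strand setting. Column numbers could not be tied to sample titles, so libraries carry the column numbers.

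Counts were tested with edgeR 4.0.16 (R 4.3.3; quasi-likelihood F test, TMM factors, default filter with a count minimum of 10 and a total of 15), which kept 16707 genes, with Benjamini-Hochberg adjustment over all of them and a threshold of 0.05. SE was taken as |log2 fold change| over √F. Transcript length and GC content came from the longest GENCODE M21 transcript and covered 94.4% of tested genes. The offset used natural splines with 5 degrees of freedom. A count of 0 allows 3 counts, at most 0.0370 CPM, for counting error only. No library was a duplicate of another (Pearson r 0.920 to 0.979). Libraries did not group by treatment throughout. PBS 4 had r of 0.969, 0.965 and 0.972 with Rb2 1, 3 and 4, against 0.959 with PBS 1 and 0.948 with PBS 2.

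Members and lists were chosen with earlier results of these data known. Every member is named, with per-library values for those that passed and for the most abundant of each role; further members were given per-library values after theirs were seen, and from each other list up to 3 genes with the smallest p are named, a few of which are not reported here. Alternatives were size factors and the Wald test of DESeq2 (1.42.0), scaling by library size alone, limma-voom (3.58.1), a count minimum of 50, no filter, a threshold of 0.1, a replicate block, a muscle covariate, the offset, each library left out, and 2 PBS libraries left out.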

Additional observations from a re-analysis of the deposited data

How the results depend on the processing

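The 11 member calls were all kept with DESeq2 size factors, library size alone, no filter and a count minimum of 50. With 1 library left out, the members lower ran from 1 to 14 (elastic fibre 0 to 8, basement membrane 0 to 3, proteoglycan 0 to 2, adhesive glycoprotein 0 to 2), beside 181 to 1069 genes lower and 121 to 1200 higher. The DESeq2 Wald test gave 20 members lower (basement membrane 5, proteoglycan 2, adhesive glycoprotein 5), with 1623 of all genes lower and 1686 higher. An adjusted p under 0.1 gave 17 (basement membrane 5, adhesive glycoprotein 3), with 1635 of all genes lower and 1757 higher. With limma-voom 0 adhesive glycoproteins were called. At an unadjusted p under 0.05 in limma-voom 6 were lower, beside 4955 of 16707 genes changed in either direction. Library size alone gave 492 genes higher. With the muscle covariate the numbers were 7 members (proteoglycan 0, adhesive glycoprotein 0) with 486 genes lower and 420 higher, and with the GC and length offset 6 members (basement membrane 0, proteoglycan 2, adhesive glycoprotein 0) with 501 genes lower. With the 2 muscle-rich PBS libraries left out, edgeR called 0 members in every role and 0 genes lower or higher, with 10 members lower and 2063 genes changed at an unadjusted p under 0.05. A replicate block on column numbers 1 and 4, which occur in each group, gave 0 members lower in every role, with 54 genes lower and 42 higher. At an unadjusted p under 0.05 the block gave 11 members lower, beside 2323 of 16707 genes changed in either direction. Column numbers are not known to pair mice: same-numbered libraries deviated from their group means with r of -0.197 and -0.215.

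Some fitted values changed sign: Lox with library size alone (-0.044), the replicate block (-0.22), the muscle covariate (-0.022), the offset (-0.084) and a library left out (range -0.13 to 0.24); Lamc1 with the offset (0.034); Agrn with the block (0.058), the offset (0.19) and a library left out (range -0.22 to 0.065); Lum without the 2 PBS libraries (0.0098); and Vcan with the block (0.17), without the 2 PBS libraries (0.23) and with a library left out (range -0.55 to 0.20). The cause was not tested.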

Other observations

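Receptors and remodelling enzymes of the matrix were measured in the same libraries. Of 27 matrix receptors 6 fell and 0 rose, with the integrin chains Itga2 (log2 fold change -1.82, at 0.176 ± 0.0185 CPM with Rb2 and 0.626 ± 0.0242 CPM with PBS), Itga6 (-0.95), which pairs into laminin receptors, and Itga5 (-0.79), the fibronectin receptor chain, having the smallest p. With the GC and length offset 2 receptors were lower (Itga2, Itga6) and 1, Dag1, higher; the muscle covariate left 3 lower (Itga2, Itga5, Itga6), and the DESeq2 Wald test gave 7 lower and 2 higher (Dag1, Itgav). Of 10 genes of latent TGF-beta binding and TGF-beta signalling 3 fell: Ltbp4 (78.4 ± 13.6 CPM with Rb2, 170.3 ± 15.7 CPM with PBS; -1.12, adjusted p = 0.00628), a microfibril protein that holds latent TGF-beta, Tgfb1 (-0.80) and Ltbp1 (-0.79). With the muscle covariate Ltbp4 alone of these was lower, and with the offset Ltbp2 was higher beside the 3. Matrix proteases had 5 of 18 lower, with Adamts4 (-2.34, adjusted p = 0.00466), Mmp14 (-1.01) and Mmp2 (-0.64), against 4 lower and 1 higher (Mmp11) with the offset and 3 lower and 1 higher (Mmp13) with the muscle covariate. Protease inhibitors had 0 of 7 called in edgeR, with 4 lower at an unadjusted p under 0.05, and 2 lower in the DESeq2 Wald test. Reck (-0.65) and Timp1 (-1.30) had an adjusted p of 0.0895 and 0.0906 in edgeR. Collagen-modifying enzymes had 1 of 10 lower, Pcolce (-0.69), with Bmp1 (-0.47) and Plod2 (-0.71) short of the threshold. With the offset or the muscle covariate 0 of these enzymes were called in edgeR. At an unadjusted p under 0.05, 3 of them were lower and 2 higher with the offset. With the muscle covariate 3 were lower and 1 was higher. All genes tested were lower in 5.11% and higher in 5.33%.

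Of 11 tested macrophage markers 4 were lower, with C1qc (-0.86), C1qb (-0.79) and C1qa (-0.69) leading, and the list summed to 78.8 to 110.5 CPM in Rb2 libraries and 120.2 to 153 CPM in PBS libraries. With the offset 0 macrophage markers were called in edgeR (3 lower at an unadjusted p under 0.05), and with the muscle covariate C1qc alone was. No call was made by edgeR among 8 Schwann and neural markers (S100b 0.54, Ncam1 -0.55; 0 at an unadjusted p under 0.05) or 10 lymphocyte markers (Cd79b -1.04, Ighm -1.27; 2 lower at an unadjusted p under 0.05), and the 1 mesothelial marker that entered the test, Lrrn4, was higher (1.07, adjusted p = 0.0287).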
